A study of Mus musculus with 50 samples.

Results

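Nmrk2, the muscle-enriched nicotinamide riboside kinase, was followed together with 8 other genes of NAD metabolism in aging mouse gastrocnemius. The genes were picked by symbol from the 23880 genes of the count and TPM (a level scaled by transcript length and library size) tables: the riboside kinases Nmrk1 and Nmrk2, the salvage enzymes Nampt, Nmnat1 and Nmnat3, the acid-branch enzyme Nadsyn1, the mitochondrial transhydrogenase Nnt and the sirtuins Sirt1 and Sirt3. All 9 passed the filter on low counts. Polyadenylated RNA came from whole gastrocnemius of 50 male wild type C57BL/6JRj mice, 1 library per mouse. The ages 8, 18, 22 and 24 months had 8 mice each, and the ages 26 and 28 months had 9 each. All mice were caged singly and ate the purified AIN-93M diet. The 8 and 18 months-old mice were moved to it some months before dissection, whereas all older mice received it from 18 to 19 months on, and mice with visible illness or tumors had been left out. Total counts per mouse lay between 13607229 and 21267375.

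NAD carries electrons in energy metabolism and is consumed by sirtuins and poly(ADP-ribose) polymerases, so that cells rebuild it continuously. Nampt starts the main salvage route by turning nicotinamide into nicotinamide mononucleotide. Nmrk1 and Nmrk2 make the same mononucleotide from nicotinamide riboside, and Nmrk2 is known as the form found mainly in heart and skeletal muscle. The Nmnat enzymes then attach the adenylyl group, Nadsyn1 finishes the route from nicotinic acid, and Nnt uses the proton gradient to pass electrons from NADH to NADP.

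The genes lie on 7 chromosomes. Nmrk2 occupies chr10:81198170-81202051 on the minus strand and Nmrk1 chr19:18631950-18652428 on the plus strand of GRCm38, as annotated in GENCODE vM21. The sequences just upstream of both kinase genes are shown because these genes, which catalyze the same step, had such different levels and age profiles. They come from the RefSeq promoter table (GRCm38.p6), are written 5′ to 3′ on the coding strand and stop at the first base of the GENCODE gene, with 236 bases for Nmrk2 (chr10:81202052-81202287, minus strand) and 184 for Nmrk1 (chr19:18631766-18631949, plus strand). Capitals mark the letters CANNTG, the core of E-box elements, and TATAAA, the core of a TATA box, searched on both strands with no overlap between them here.
Nmrk2: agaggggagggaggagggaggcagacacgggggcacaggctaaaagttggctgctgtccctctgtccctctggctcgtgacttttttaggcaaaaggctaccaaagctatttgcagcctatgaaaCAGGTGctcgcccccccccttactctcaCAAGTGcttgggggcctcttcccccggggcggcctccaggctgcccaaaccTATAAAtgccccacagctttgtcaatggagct
Nmrk1: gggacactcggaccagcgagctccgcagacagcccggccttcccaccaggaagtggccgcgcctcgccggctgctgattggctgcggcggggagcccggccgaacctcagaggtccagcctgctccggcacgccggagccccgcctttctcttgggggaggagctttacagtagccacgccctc
The Nmrk2 window held TATAAA beginning 46 bases before the RefSeq start and 2 CANNTG matches beginning 125 and 97 bases before it. The Nmrk1 window held neither motif and was richer in G and C (71.2% against 58.5%). Of 32851 promoter windows in the table, each from 250 bases before to 50 after a start, TATAAA was in 13.6% and CANNTG in 72.3%. CACGTG, itself a form of CANNTG, was found in 7.15% of windows and 2 times in that of Sirt1, and AAGGTCA, the letters of an estrogen-related receptor half-site, in 4.72% of windows and 1 time in that of Nmnat3. Of the 9 genes, 8 had an entry in the table. These matches describe letters only.

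Nmrk2 was the most abundant of the 9 transcripts in young muscle and lost most of its level with age. At 8 months its lowest, median and highest values over the 8 mice were 124, 176 and 260 TPM, and at 18 months they were 77.7, 190 and 332 TPM. At 22 months the values were 25.7, 93.6 and 157 TPM, and at 24 months 20.8, 76.4 and 143 TPM. At 26 months they were 3.21, 30.3 and 73.6 TPM and at 28 months 2.98, 10.3 and 100.03 TPM. The highest value of 26 and 28 months therefore lay below the lowest of 8 months. Means with SD over the 8 mice of an age were 175 ± 44.8 TPM at 8 months, 204 ± 82.0 at 18, 94.1 ± 47.7 at 22 and 78.8 ± 43.0 at 24 months, and over 9 mice 36.9 ± 24.2 TPM at 26 and 30.4 ± 37.4 at 28 months. Neighbours in this order overlapped widely: 18 with 8 months, 22 with 24 months and 26 with 28 months. Values under the minimum of 8 months were found in 5 of 8 mice at 22, 7 of 8 at 24, 9 of 9 at 26 and 9 of 9 at 28 months.

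**Figure D1:**
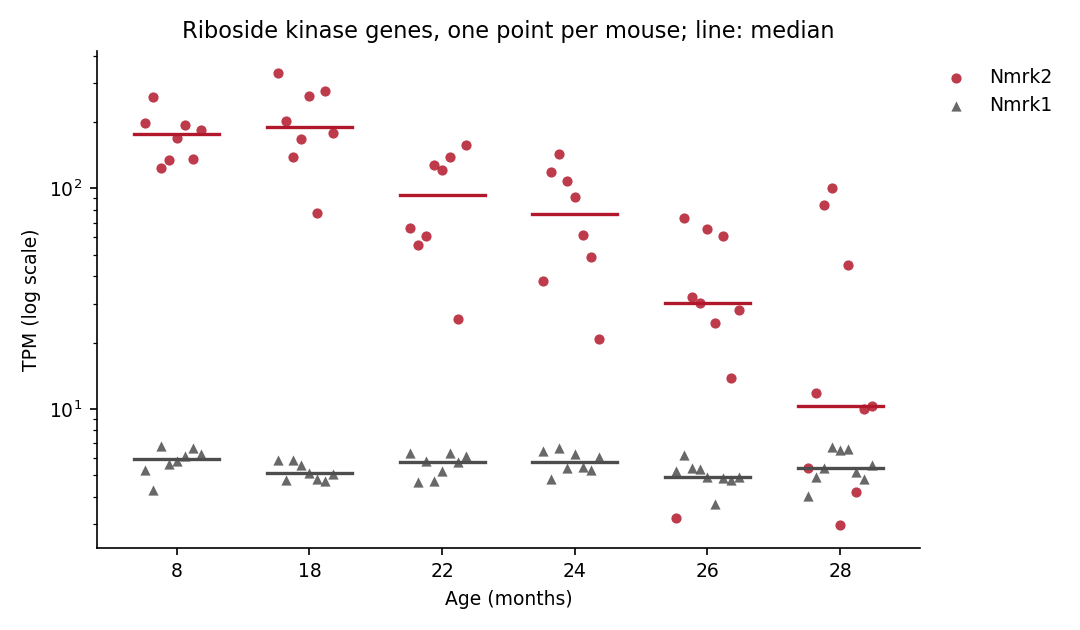
TPM of Nmrk2 (circles) and Nmrk1 (triangles) in each mouse on a log scale against age in months, with a line at the median of each age. Nmrk2 medians fell from 176 TPM at 8 months to 10.3 TPM at 28 months, whereas Nmrk1 medians stayed between 4.92 and 5.97 TPM, and at 28 months Nmrk2 ranged from 2.98 to 100.03 TPM.

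Because Nmrk2 was known to be among the strongest decreases between 28 and 8 months, that contrast is described without a test for the 9 genes, and tests were made between ages it did not use. The edgeR quasi-likelihood test, fitted on the counts of all 12586 genes past the filter with Benjamini-Hochberg adjustment, called a gene at an FDR below 0.01. Between 26 and 18 months Nmrk2 fell by 2.48 on the log2 scale (SE 0.51, FDR 0.000944, lower than the 18 months mean in 9 of 9 mice), a 5.58-fold decrease. This was 1 of 2 of the 9 genes called in this contrast, in which 10.1% of all tested genes were called. The TPM of the 2 ages did not overlap, which held in the lower direction for 0.501% of tested genes. The call held with each mouse of 18 to 26 months left out in turn (FDR from 0.000565 to 0.00298). Age and diet history cannot be told apart between 18 and 26 months.

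The ages 26 and 22 months shared a diet schedule. Time on the diet was longer at 26 months and cannot be told apart from age. At 26 against 22 months the log2 fold change of Nmrk2 was -1.36 (SE 0.49, edgeR FDR 0.0558) and did not pass the threshold, although all 9 mice of 26 months lay below the mean of 22 months. Without single mice the FDR ranged from 0.0301 to 0.117. Over the steps between these ages the fitted log2 fold changes were -1.12 (SE 0.50) from 18 to 22 months, -0.30 (SE 0.50) from 22 to 24 months and -1.06 (SE 0.49) from 24 to 26 months, none past the threshold. The joint edgeR test of any difference over 18, 22, 24 and 26 months, which called 4.89% of tested genes, gave an FDR of 0.00456 for Nmrk2. Its FDR rose to 0.0109 without 18 months replicate 1, to 0.0111 without 26 months replicate 1 and to 0.0126 without 26 months replicate 8. The comparisons with 26 months share the same 9 mice.

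As a description, Nmrk2 values were more spread between mice of one age at later ages. The coefficient of variation of its TPM was 25.6% at 8 months, 40.2% at 18, 50.7% at 22, 54.6% at 24, 65.6% at 26 and 123% at 28 months, while the median over tested genes stayed between 15.1% and 21.2%. Nmrk2 thus stood at the 73.0th percentile of genes at 8 months and at the 99.6th at 28 months. At 28 months, replicates 1 to 9 had 5.40, 11.8, 84.0, 100.03, 2.98, 44.8, 4.19, 10.02 and 10.3 TPM. Replicates 3, 4 and 6 were high and the other 6 mice were at or below 11.8 TPM. On the log2(TPM + 1) scale the mean absolute deviation from the median of the age was 0.864 ± 0.911 (SD, n = 9) at 26 months and 0.726 ± 0.439 (n = 8) at 22 months, a difference of 0.138 within the spread between mice (two-sided exact permutation test, p = 0.734, adjusted p = 0.734). Without 26 months replicate 1, the mouse with 3.21 TPM, the difference was -0.116.

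Nmrk1, the more widely expressed kinase, stayed low at all ages. Its lowest, median and highest TPM were 4.31, 5.97 and 6.77 at 8 months, 4.66, 5.78 and 6.32 at 22 months, 3.72, 4.92 and 6.21 at 26 months and 4.05, 5.42 and 6.77 at 28 months, so that every age overlapped every other. The edgeR log2 fold change was -0.15 (SE 0.11, FDR 0.359) at 26 against 22 months and -0.06 (SE 0.11, FDR 0.726) at 26 against 18 months. These values rest on 45 to 135 counts per mouse. Since TPM is per length, both kinases can be set against each other within a mouse. The median ratio of Nmrk2 to Nmrk1 was 29.3 at 8 months, 38.6 at 18, 17.0 at 22, 12.9 at 24, 5.94 at 26 and 2.08 at 28 months. The share of Nmrk2 in the summed TPM of both kinases had a median of 96.7% at 8 months and of 67.6% at 28 months, where it ranged from 31.3% to 93.9%.

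The log2 ratio was lower at 26 months, 2.45 ± 1.38 (SD, n = 9), than at 22 months, 3.87 ± 0.903 (n = 8), a difference of -1.41 (two-sided exact permutation test, p = 0.0176, adjusted p = 0.0265 over 3 such tests). Leaving out single mice gave differences from -1.66 to -1.02, all with p at or below 0.0350. Against 18 months the difference was -2.72 (exact permutation test, p = 4.11e-05, the smallest that the 24310 rearrangements of 9 and 8 mice can give, adjusted p = 0.000123). Nmrk1 exceeded Nmrk2 in 1 of 9 mice at 26 months and 2 of 9 at 28 months, and in none of the 32 younger mice.

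Nampt, the enzyme that limits nicotinamide salvage, had similar medians at all ages. Nampt had medians of 103 TPM (range 93.2 to 120) at 8 months, 111 (73.7 to 138) at 18, 103 (91.6 to 107) at 22, 104 (91.3 to 118) at 24, 110 (92.6 to 189) at 26 and 108 (89.7 to 277) at 28 months. All ages overlapped. Its edgeR log2 fold change was 0.21 (SE 0.12, FDR 0.214) at 26 against 22 months and 0.07 (SE 0.12, FDR 0.690) at 26 against 18 months, and without 26 months replicate 6 these were 0.12 (FDR 0.499) and -0.02 (FDR 0.906). With all mice, an approximate 95% interval for 26 against 22 months ran from -0.02 to 0.43. Nmrk2 exceeded Nampt in 8 of 8 mice at 8 months, 7 of 8 at 18, 4 of 8 at 22, 3 of 8 at 24, 0 of 9 at 26 and 1 of 9 at 28 months.

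Nmnat1, the nuclear adenylyltransferase, fell in small steps. Its lowest, median and highest TPM were 21.3, 26.5 and 29.7 at 8 months and 19.0, 25.2 and 29.6 at 18 months. They were 20.0, 22.8 and 24.0 at 22 months, 15.6, 19.8 and 23.2 at 24 months, 12.4, 18.8 and 22.3 at 26 months and 13.4, 17.6 and 24.7 at 28 months. The ranges overlapped at every age. Nmnat1 was the other gene called between 26 and 18 months, where it fell by 0.42 on the log2 scale (SE 0.09, edgeR FDR 0.00181), with an FDR of at most 0.00712 without any single mouse. At 26 against 22 months its log2 fold change was -0.25 (SE 0.09, FDR 0.0558). The joint test over 18 to 26 months gave an FDR of 0.00728, which rose above 0.01, to at most 0.0209, without any 1 of 18 months replicates 3, 4, 5, 7 and 8 or of 26 months replicates 1, 3, 4, 8 and 9.

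Nmnat3, the mitochondrial adenylyltransferase, and Nadsyn1, the NAD synthetase that amidates the nicotinic acid form, gave no call. Nmnat3 had means with SD of 18.6 ± 2.25 TPM at 8 and 18.7 ± 1.86 TPM at 22 months (8 mice each) and of 16.7 ± 2.79 TPM at 26 and 17.3 ± 2.97 TPM at 28 months (9 mice each). Its edgeR log2 fold change was -0.14 (SE 0.09, FDR 0.279) at 26 against 22 months and -0.23 (SE 0.09, FDR 0.0486) at 26 against 18 months. Nadsyn1 was the lowest of the 9 transcripts at all 6 ages, with means from 2.25 to 2.67 TPM and 21 to 69 counts per mouse. Its log2 fold change was -0.15 (SE 0.13, FDR 0.449) at 26 against 22 months.

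Nnt is listed under 2 identifiers in the tables, and the one with more transcripts was used. In GENCODE vM21 all 3309 stretches of 31 bases of the second record also occur in the first, and its counts were 0.452 to 0.484 times those of the first in every mouse. The authors divided reads that fit several transcripts evenly, so each record holds part of the reads of 1 gene and the level of Nnt per record is uncertain. Many C57BL/6J lines carry a deletion of several Nnt exons, and gene counts cannot show which exons were present. The used record had means with SD of 19.6 ± 5.77 TPM at 8, 19.0 ± 4.82 at 18, 24.1 ± 6.07 at 22 and 29.5 ± 9.19 at 24 months (8 mice each) and of 26.2 ± 5.26 at 26 and 30.2 ± 6.88 at 28 months (9 mice each). All 9 mice of 26 months lay above the mean of 18 months. The edgeR log2 fold change between these ages was 0.47 (SE 0.15, FDR 0.0176), and it was 0.14 (SE 0.15, FDR 0.517) against 22 months. The latter was 0.07 without 22 months replicate 3 and 0.08 without 26 months replicate 4.

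Sirt1, the nuclear NAD-dependent deacetylase, rose. Its lowest, median and highest TPM were 5.23, 5.82 and 8.74 at 8 months, 5.29, 6.86 and 7.27 at 18 months and 4.73, 5.97 and 7.46 at 22 months. They were 5.79, 6.66 and 9.001 at 24 months, 6.39, 7.95 and 10.6 at 26 months and 7.23, 11.1 and 16.3 at 28 months. The ranges of 26 and 22 months overlapped, with 5 of 9 mice above the highest mouse of 22 months and 9 of 9 above its mean. Sirt1 was higher by 0.47 on the log2 scale (SE 0.12, edgeR FDR 0.00881) at 26 than at 22 months, the only call among the 9 genes in this contrast, in which 2.65% of all tested genes were called. The call is narrow. The FDR was above 0.01, at most 0.0299, without any 1 of 18 mice: 18 months replicates 3, 7 and 8, 22 months replicates 2 to 8, 24 months replicates 2, 3, 5 and 7, and 26 months replicates 1, 3, 6 and 8. Its log2 fold change stayed between 0.41 and 0.50. Against 18 months it was 0.36 (SE 0.12, FDR 0.0205).

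Sirt3, the main deacetylase of the mitochondrial matrix, had lower values in older mice. Its lowest, median and highest TPM were 28.5, 30.9 and 42.7 at 8 months, 20.04, 28.6 and 39.2 at 18 months and 20.3, 28.5 and 37.8 at 22 months. They were 18.5, 25.3 and 31.9 at 24 months, 12.3, 21.4 and 27.3 at 26 months and 11.0, 17.6 and 31.5 at 28 months. All 9 mice of 26 months lay below all 8 of 8 months, and this separation, shared by Nmrk2, held in the lower direction for 1.13% of tested genes. The edgeR log2 fold change was -0.44 (SE 0.16, FDR 0.0531) at 26 against 22 months and -0.56 (SE 0.16, FDR 0.0102) at 26 against 18 months, and neither passed the threshold. The latter passed with DESeq2 (FDR 0.00546), with RLE size factors (0.00983) and with only 18 to 26 months in the fit (0.00217). With edgeR the latter FDR lay between 0.00584 and 0.0321 with each mouse left out and passed without 18 months replicate 3, 22 months replicates 1 or 5 or 26 months replicates 2, 5 or 7.

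**Figure D2:**
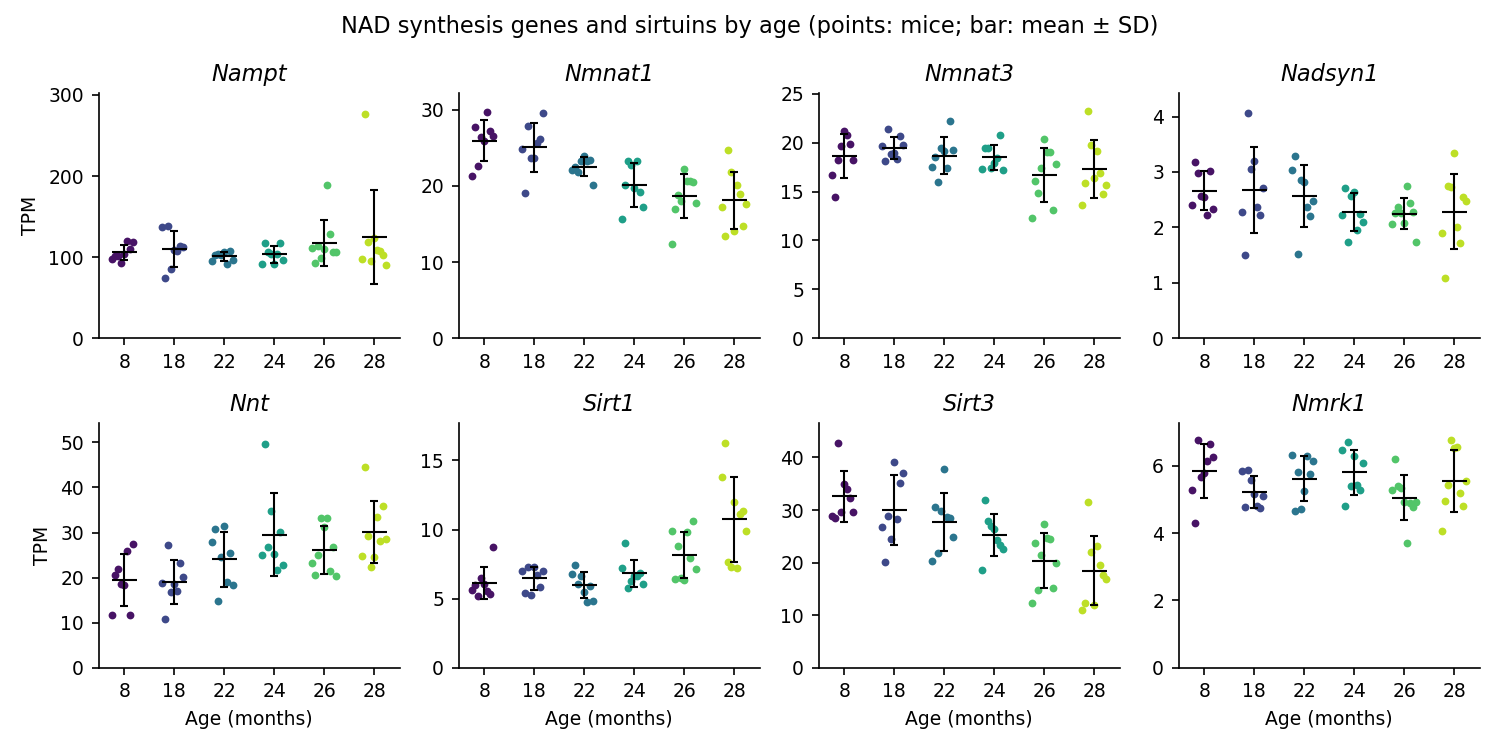
TPM in each mouse (points) with mean and SD (bars) against age in months for the 8 genes other than Nmrk2, each on its own axis from 0. Nmnat1 and Sirt3 were lower and Sirt1 higher in the oldest mice, while Nampt lay between 73.7 and 138 TPM apart from single mice at 189 and 277 TPM.

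Across the 9 genes the median log2 fold change was -0.15 at 26 against 22 months and -0.21 at 26 against 18 months, beside medians of 0.00 over all tested genes, with 6 of 9 values below 0 in each. At an FDR of 0.05, 6 of the 9 were called at 26 against 18 months, where 25.6% of all tested genes were, and 5 in the joint test, where 15.1% were. None of the 9 was called between neighbouring ages from 18 to 26 months. Between 22 and 18 months 0.00795% of tested genes were called by edgeR, a single gene, and 2 of the 9 had an unadjusted p below 0.05 (522 genes overall). Between 24 and 22 months and between 26 and 24 months edgeR called 0% of tested genes, with 0 and 2 of the 9 below an unadjusted p of 0.05 (478 and 2202 genes overall). DESeq2 and limma called none of the 9 in these 3 contrasts either. As a description with no test, the fitted log2 fold changes between 28 and 8 months were -0.90 (SE 0.16) for Sirt3, 0.72 (SE 0.12) for Sirt1, -0.56 (SE 0.09) for Nmnat1 and 0.54 (SE 0.15) for Nnt, and those of Nadsyn1, Nmnat3, Nmrk1 and Nampt lay between -0.24 and 0.10. Only Nmrk2 of the 9 showed no overlap between 28 and 8 months, a contrast in which 1.85% of tested genes did so in the lower direction.

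**Figure D3:**
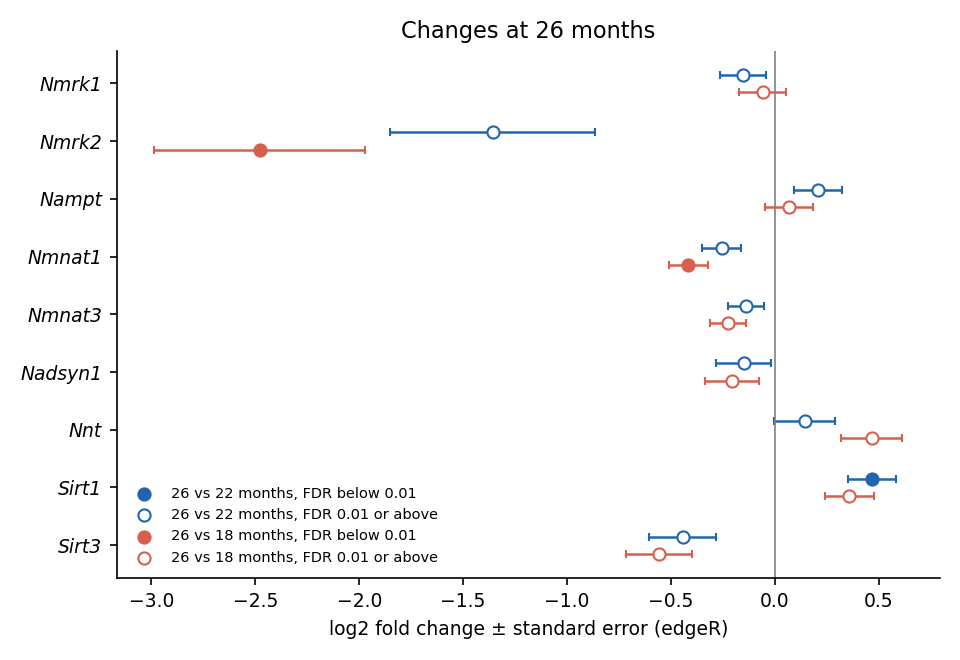
Fitted edgeR log2 fold changes with standard errors for the 9 genes at 26 against 22 months (blue) and 26 against 18 months (red), filled where the FDR was below 0.01. The filled points are Sirt1 at 0.47 against 22 months and Nmrk2 at -2.48 and Nmnat1 at -0.42 against 18 months.

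Marker genes place these values. The 6 defining muscle fibre markers summed to between 115051 and 155008 TPM in every mouse of 26 months, and 0 of 6 were called at 26 against 22 or 18 months (edgeR, FDR 0.01), whereas the 5 lymphocyte markers summed to at most 2.61 TPM and none was abundant enough to test. In whole muscle, fewer cells of a type and less RNA per cell cannot be told apart. Several lists held called genes in the contrasts in which Nmrk2, Nmnat1 and Sirt1 were called. Of all tested genes, 10.1% were called in either direction at 26 against 18 months and 2.65% at 26 against 22 months. Of the 10 denervation response genes, which rise when fibres lose their nerve, 8 were tested. Of these, 4 were higher at 26 than at 18 months. The sum over the list was 113 to 248 TPM against 69.7 to 142 TPM. Most of it came from 2 genes. From 18 to 26 months mean Gadd45a went from 42.8 to 89.9 TPM and Musk from 34.8 to 54.4 TPM. Other genes of the list had lower means and moved in both directions. Mean Chrna1 went from 7.7 to 13.1 TPM and Chrng from 0.456 to 0.266 TPM, and Chrnd was at most 1.99 TPM at both ages. The sum thus mainly describes Gadd45a and Musk. At 26 against 22 months 0 of 8 were called, with sums of 113 to 248 against 83.3 to 121 TPM. Of the 5 adipocyte markers 3 and of the 4 fibroblast markers 2 were lower at 26 than at 18 months, with sums of 320 to 574 against 453 to 947 TPM and of 476 to 815 against 565 to 883 TPM. Between 26 and 22 months 0 of 5 adipocyte markers were called, with sums of 320 to 574 against 290.5 to 804 TPM, and 1 of 4 fibroblast markers was lower, with sums of 476 to 815 against 625.3 to 856 TPM. In the same contrast 1 of 4 tested clock genes that peak with Bmal1 was higher (67.1 to 151 against 39.5 to 67.9 TPM). Of 8 that peak with the Per genes, 2 were lower (418 to 564 against 462 to 655 TPM). From 22 to 26 months mean Nfil3 of the Bmal1 list went from 20.5 to 70.6 TPM and Clock from 10.5 to 11.0. In the Per list mean Dbp fell from 107 to 42.7 TPM and Nr1d1 from 88.8 to 46.7. Per1 went from 29.0 to 47.6 TPM, Per2 from 6.85 to 8.58 and Per3 from 7.01 to 7.58. The median log2 fold change was 0.37 for the Bmal1 list and 0.01 for the Per list. The part of these lists in the results for Nmrk2, Nmnat1 and Sirt1 was not tested, apart from the relation of Nmrk2 to the denervation genes given next.

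Over the 33 mice of 18 to 26 months, with the mean of each age removed, 7 relations between a gene and a marker score were computed. A score was the mean of log2(TPM + 1) over a list. No relation of Nmrk2 to the denervation response score was detected (r = -0.0854, permutation test, p = 0.643 and adjusted p = 0.643; Spearman's rho = 0.0294, p = 0.876, adjusted 0.876). At 28 months, outside that test, the mouse with the highest summed denervation genes (replicate 1, 637 TPM) had 5.40 TPM of Nmrk2. The mouse with the lowest sum (replicate 3, 120 TPM) had 84.0 TPM. These mice were picked by their sums, and a relation at 28 months was not tested. The relation of Nmrk2 to the slow fibre score was r = 0.196 (permutation p = 0.288, adjusted 0.335, and rho = 0.219, p = 0.229, adjusted 0.321). That to the fast IIB fibre score was r = -0.419 (permutation p = 0.0193, adjusted 0.0451; rho = -0.431, p = 0.0169, adjusted 0.0393), but it did not hold without the 2 farthest mice (r = -0.369, adjusted p = 0.116), on the CPM scale (r = -0.311, adjusted p = 0.329) or within any single age (r from -0.750 to -0.200). Nampt, a target of the clock in other tissues, gave r = 0.247 with the Bmal1-phase score (permutation p = 0.230, adjusted 0.335; rho = 0.123, p = 0.509, adjusted 0.594) and r = 0.219 with the Per-phase score (p = 0.247, adjusted 0.335; rho = 0.262, p = 0.140, adjusted 0.244). Within single ages r was highest at 18 months, 0.789 and 0.759 (8 mice, exact permutation tests, p = 0.0203 and 0.0353, adjusted p = 0.142 and 0.165). Without the 2 farthest mice r was 0.00195 for denervation, 0.201 for slow fibre, 0.3205 for Bmal1-phase and 0.200 for Per-phase.

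Sirt3 followed the genes of oxidative phosphorylation closely. Over the 33 mice r was 0.848 with the score of 22 respiratory chain and ATP synthase genes, and rho was 0.835 (permutation p = 1e-05 for each, the smallest 100000 permutations can give, adjusted p = 7e-05). Without the 2 mice farthest from the median score r was 0.8003, and on the CPM scale it was 0.753. Within ages r was 0.712 at 18 months, 0.871 at 22, 0.923 at 24 and 0.892 at 26 months (two-sided exact permutation tests, p = 0.0569, 0.00501, 0.00102 and 0.00102, adjusted p = 0.228, 0.0468, 0.0143 and 0.0143 over the relations within ages). Among 9168 other genes Sirt3 stood at the 99.5th percentile of r with this score, whose 5th and 95th percentiles were -0.391 and 0.641. High values were not particular to Sirt3. As a description, Nmnat1 had r = 0.700 (97.0th percentile), Nmnat3 0.656 (95.5th), Nmrk2 0.535 (89.5th) and Nampt 0.410 (79.1th), whereas Sirt1 had -0.115 (21.9th). Nnt gave r = 0.433 (permutation p = 0.0134, adjusted 0.0451; rho = 0.449, p = 0.0115, adjusted 0.0393), which did not hold on the CPM scale (r = 0.0696, adjusted p = 0.710), without the 2 farthest mice (r = 0.405, adjusted p = 0.0939) or within any single age (r from 0.334 to 0.569). These values share libraries and depth.

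**Figure D4:**
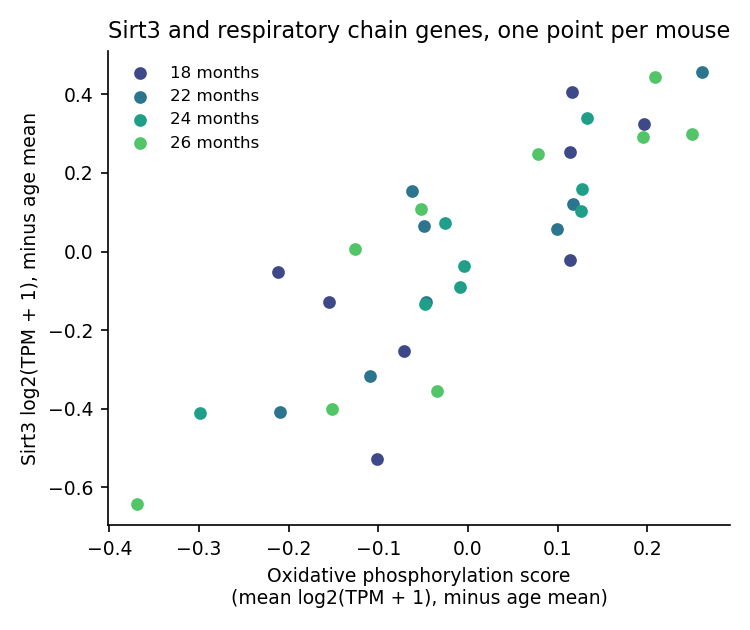
Sirt3 level (log2(TPM + 1), y axis) against the oxidative phosphorylation score (mean log2(TPM + 1) of 22 genes, x axis) in the 33 mice of 18 to 26 months, both minus the mean of the age and coloured by age. The points rise together at all 4 ages (r = 0.848).

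The 9 genes were also compared with each other between mice of one age. On the log2(CPM + 1) scale with age means removed, Nmrk2 and Sirt3 had r = 0.566, Nmnat3 and Sirt3 0.532, Nmnat1 and Sirt3 0.502, Nmrk2 and Nmnat1 0.462 and Nmrk2 and Nmnat3 0.418. Sirt1 stood opposite, with r = -0.575 to Nmrk2, -0.591 to Nmnat3 and -0.514 to Sirt3. Against all 9189 genes of at least 5 CPM, r with Nmrk2 put Sirt3 at the 95.6th and Sirt1 at the 4.47th percentile. Nmnat1 stood at the 90.5th and Nmnat3 at the 87.8th percentile, so many other genes were as close to Nmrk2. Nampt (r = -0.0801), Nnt (0.0117) and Nmrk1 (0.0302) were near 0 with Nmrk2. These correlations are descriptions over 33 libraries.

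**Figure D5:**
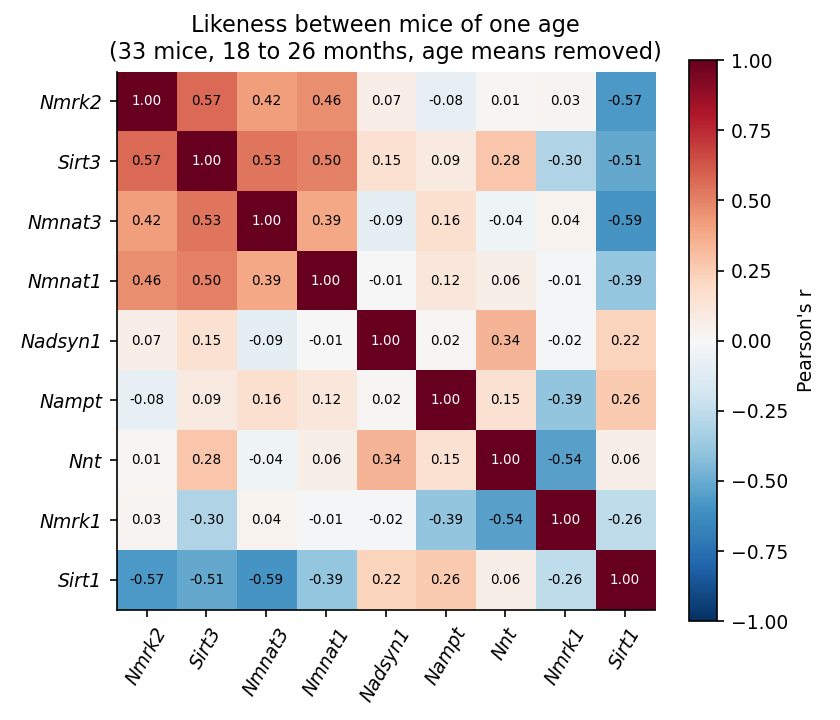
Pearson's r of log2(CPM + 1) for each pair of the 9 genes over 33 mice of 18 to 26 months with age means removed (red positive, blue negative). All pairs among Nmrk2, Sirt3, Nmnat3 and Nmnat1 are positive, with r from 0.39 to 0.57, and Sirt1 is negative to all 4.

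By the same measure the genes most like Nmrk2 were Ptpa (r = 0.831), an activator of protein phosphatase 2A, Gnb5 (0.828), a G protein beta subunit, Nrep (0.817), Trp53inp2 (0.796), which takes part in autophagy, and Neurl1a (0.795), a ubiquitin ligase. Nrep had 113 ± 13.6 CPM (SD, n = 8) at 8 months and 16.7 ± 13.0 CPM (n = 9) at 28 months. The genes most opposite were Tfdp2 (-0.828), a partner of E2F factors, Mllt10 (-0.826), Abcb1b (-0.814), a drug efflux transporter, Klhl7 (-0.811), a ubiquitin ligase adaptor, and Exosc10 (-0.809), a nuclease of the RNA exosome. Tfdp2 had 62.9 ± 6.21 CPM (n = 8) at 8 months and 216 ± 128 CPM (n = 9) at 28 months. Among all 9189 genes the 5th and 95th percentiles of r were -0.564 and 0.554.

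Of 40 further genes that make, use or move NAD, 27 were abundant enough to test. The 9 enzymes of the route from tryptophan were at low levels. Afmid had means of 2.77 to 4.08 TPM over the ages and Qprt of 0.455 to 0.809 TPM, and both were tested. Tdo2, Ido1, Ido2, Kmo, Kynu, Haao and Acmsd had mean levels of at most 0.599 TPM at every age and were not tested, as was Nmnat2. At 26 against 22 months 3865 of all 12586 tested genes had an unadjusted edgeR p below 0.05. Calls over all genes were 334 by edgeR, 179 by limma and 712 by DESeq2. Of the 27, 7 had such a p, edgeR and limma called none and DESeq2 called 2. These 2, named after their values were seen, were Sirt5, a mitochondrial desuccinylase (edgeR log2 fold change -0.41, SE 0.11, FDR 0.0111), and Tnks, a tankyrase that consumes NAD (0.49, SE 0.13, FDR 0.0118). At 26 against 18 months 1 of 27 was higher and 2 were lower, 3 of 27 beside 10.1% of all tested genes. Tnks rose by 0.51 on the log2 scale (SE 0.13, FDR 0.00425) and Sirt5 fell by 0.39 (SE 0.11, FDR 0.00724). Parp3, an NAD-using enzyme of the poly(ADP-ribose) polymerase family, fell by 0.31 (SE 0.07, FDR 0.00285). The joint test over 18 to 26 months called 1 of the 27, Tnks (FDR 0.00965), beside 4.89% of all tested genes. The median log2 fold change of the 27 was -0.04 at 26 against 22 and -0.02 at 26 against 18 months.

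Between 28 and 8 months, a contrast with 39.6% of tested genes called by edgeR, 7 of these 27 were called. The 2 that rose were Tnks (log2 fold change 0.82, SE 0.13, FDR 2.03e-06) and Nadk2, the mitochondrial NAD kinase (0.31, SE 0.09, FDR 0.0022). Qprt, which makes the mononucleotide from quinolinate, fell by 1.09 (SE 0.27) from a level of only 0.809 ± 0.1005 TPM (SD, n = 8). Naprt, the first enzyme from nicotinic acid, fell by 0.46 (SE 0.15), Naxe, which repairs hydrated NADH, by 0.38 (SE 0.09), Sirt5 by 0.36 (SE 0.11) and Parp3 by 0.28 (SE 0.07), all on the log2 scale. The other 20, among them Sirt2 (122 ± 7.97 TPM at 8 months, n = 8, and 137 ± 10.4 TPM at 28 months, n = 9), did not pass the threshold.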

How the data were processed

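Gastrocnemius RNA of 50 mice was sequenced as stranded poly(A) libraries. According to the submitters' processing notes and the methods, reads were trimmed with cutadapt 1.9.1 and assigned with kallisto 0.43.1 to Ensembl protein-coding transcripts of GRCm38. Read counts per gene, as deposited by the authors, are sums over transcripts without normalization. The TPM values deposited by the authors are scaled by transcript length and library size. Each table held 23880 genes. No sample was left out. Replicate libraries differed by at least 6.96 times the variance of counting, so none was a repeat of another.

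The main test on counts was glmQLFTest of edgeR 4.0.16 (R 4.3.3) after TMM scaling, with all 6 ages in a single fit. A gene entered if 8 or more mice had 1 CPM or more, which left 12586 genes, and the threshold was an FDR (Benjamini-Hochberg) of 0.01. DESeq2 1.42.0 and limma 3.58.1 on log2(TPM + 1) or log2(TPM + 0.1), other fits, filters and factors, and leaving out each mouse were alternatives. Values per mouse were compared with exact permutation tests, and relations with 100000 permutations within ages, in Python 3.11.15 with scipy 1.17.1. The procedures were tested on simulated data. Intervals are fitted values ± 1.96 SE.

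The genes and lists were chosen with earlier results of these data known, 28 against 8 months in particular. Named genes were the 9 members, further NAD genes past FDR 0.01 at 26 against 22 months (there were none) and the 5 highest and 5 lowest correlations with Nmrk2. Others were named after their values were seen. Replicate numbers repeat across ages without stated pairing, and the fits were made without a block. P-values set a difference or a correlation against the spread between mice.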

Additional observations from a re-analysis of the deposited data

Results flagged for a closer look

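Of 54 sets of mice (9 genes at 6 ages), 6 held 1 mouse far from the others by Dixon's test, where chance alone gives about 1 set in 20. Nampt was at 189 TPM in 26 months replicate 6 (nearest mouse 129, median 110 TPM) and at 277 TPM in 28 months replicate 2 (nearest 124, median 108 TPM). Replicate 2 of 24 months stood apart in 2 genes, with Nnt at 49.7 TPM (nearest 34.7 TPM) and Sirt1 at 9.001 TPM (nearest 7.25 TPM). At 8 months, Sirt1 was at 8.74 TPM in replicate 8 (nearest 6.48 TPM) and Sirt3 at 42.7 TPM in replicate 3 (nearest 35.0 TPM). No value of Nmrk2 was among them.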

How the results depend on the processing

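Nmrk2 and Nmnat1 stayed called at 26 against 18 months under every fit tried and with each mouse left out (2 to 3 genes called then). That contrast gave 6 of the 9 genes at FDR 0.05 and 4 with only 18 to 26 months in the fit. At 26 against 22 months the 1 call (Sirt1) was lost, leaving 0, with no filter, with limma at either pseudocount and with a fit on 22 and 26 months alone (FDR at most 0.0367), and 0 to 1 were called without single mice. The joint test called 5 at FDR 0.05, 1 with limma at either pseudocount and 0 to 2 without single mice. Contrasts of neighbouring ages gave 0 throughout. The cause of these changes was not tested.

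Over all genes, 26 against 22 months gave 334 calls (210 higher, 124 lower), against 179 (63 higher, 116 lower) or 162 (62 and 100) with limma at pseudocounts 1 and 0.1, 223 with no filter, 712 with DESeq2, 971 with only 18 to 26 months and 1734 at FDR 0.05. At 26 against 18 months 1268 calls (679 higher, 589 lower) compare with 847 (307 and 540) or 836 (318 and 518) with limma, 762 with 2 ages, 2003 with 18 to 26 months and 3225 at FDR 0.05. The joint test gave 616, against 335 or 306 with limma, 1240 and 1903.

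The Nmrk2 relation to denervation turned to 0.00195 without the 2 farthest mice, 0.0746 within 18 months and 0.00604 within 24 months, and to slow fibre genes to -0.156 within 26 months. For fast IIB genes it was -0.311 in CPM, -0.369 without the 2 farthest mice and -0.555, -0.200, -0.750 and -0.344 within 18, 22, 24 and 26 months, each short of the threshold. Nampt turned to -0.306 (22 months) and -0.174 (24 months) with the Bmal1-phase score and to -0.199 (CPM) and -0.0246 (26 months) with the Per-phase score, beside 0.789 and 0.759 within 18 months. Sirt3 with oxidative phosphorylation missed the threshold within 18 months (0.712), as did Nnt in CPM (0.0696), without the 2 farthest mice (0.405) and within the 4 ages (0.569, 0.380, 0.535 and 0.334).

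Without single mice the kinase ratio difference ranged from -1.66 to -1.02 and the spread difference from -0.116 (26 months replicate 1 left out) to 0.348. Nampt at 26 against 18 months ranged from -0.0218, without 26 months replicate 6, to 0.116.

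The labels state no pairing of mice by replicate number. Of same-numbered pairs 52 of 121 correlated above 0.1 (mean r 0.049), and 13 of 50 samples correlated best with their own number. The mean r of same-numbered mice was highest between 22 and 24 months (0.191, against -0.0278 for other numbers). It was lowest between 18 and 22 months (-0.129, against 0.0179). Whether mice with the same number share a factor was not tested. With the replicate number as a block, 427 genes were called at 26 against 22 months, 1 of the 9 genes among them (Sirt1, log2 fold change 0.47, FDR 0.00666), and 3 of the 9 at 26 against 18 months (Sirt3 added, FDR 0.00792). The low counts of Nadsyn1 and Nmrk1 limit the precision of their values.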
